A study of Homo sapiens with 6 samples.

Results

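GFI1 belongs to a small set of zinc finger repressors that begin with the same short protein motif, the SNAG domain. The 9 human genes of this set examined here are GFI1, GFI1B, INSM1, INSM2, SNAI1, SNAI2, SNAI3, SCRT1 and SCRT2, chosen by name from the 58735 genes of the table. All 9 were found, and 8 of them passed edgeR's filter on low counts, which left 17514 genes for testing. The cells were H1155, a human lung cancer line that the labels describe as neuroendocrine large cell lung cancer, grown in DMEM with 10% FBS and left untreated. RNA was sequenced from 3 libraries labelled WT, of Wildtype genotype, and 3 labelled GFI1-KO, of GFI1 knockout genotype. By the study's methods, GFI1 was targeted with CRISPR/Cas9 and paired guides against its promoter region, and GFP-positive cells were sorted into monoclonal lines. Which guide pair or how many clones the GFI1-KO libraries stand for is not given in the sources used here, so genotype and clone cannot be told apart. No label says that the replicates were separate cultures, and p-values therefore measure the spread between these libraries, which may be technical.

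GFI1 itself had no fewer counts under the label GFI1-KO than under the label WT. Groups are named by their labels for this reason, and every direction given for these cells rests on those labels. Library totals lay between 14882914 and 16102215 counts in WT and between 17503794 and 17692882 in GFI1-KO. A count of 3, taken as the smallest a library can show, corresponded to 0.170 to 0.202 CPM, a floor that covers counting error only. Libraries of one group correlated with a Pearson's r of 0.994 to 0.996, and libraries of different groups with 0.948 to 0.953, over the log2 CPM of tested genes, which are not independent.

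The SNAG domain binds LSD1 (KDM1A) and, through it, the CoREST and histone deacetylase complexes, which remove active marks from chromatin. GFI1 and GFI1B are best known from blood formation, the INSM and Scratch proteins from neuroendocrine cells and neurons, and the Snail proteins from the silencing of epithelial genes. Their zinc fingers read different DNA words, an AATC core for the GFI1 pair and the E-box CAGGTG for the Snail and Scratch proteins. The comparison asks which of these relatives H1155 cells transcribe, at what level, and how each level differs between the libraries labelled WT and GFI1-KO.

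The guides and the annotated GFI1 promoters are shown first because they define what the GFI1-KO label refers to. All 4 guide sequences matched GRCh38 at 1 place each, beside an NGG PAM. They are written here 5′ to 3′ on the strand of the protospacer, in lower case, with the PAM in capitals.
Guide 1-1, minus strand, chr1:92485255-92485274: attgtacggacgagaagtgcAGG
Guide 1-2, plus strand, chr1:92483626-92483645: actctccggtgcggcggactGGG
Guide 2-1, minus strand, chr1:92485315-92485334: ttcttttcttccgagtttcgTGG
Guide 2-2, plus strand, chr1:92483620-92483639: gtcagtactctccggtgcggCGG

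Cuts 3 bases from each PAM would bound 1615 bases for pair 1 and 1681 bases for pair 2. All of this sequence lies within intron 1 of the canonical GFI1 transcript, and 0 coding bases fall inside it. RefSeq gives GFI1 3 promoters, and their windows of 300 bases are shown to compare them with the guide intervals. The second start lies 826 bases downstream of the first and the third 3111 bases downstream, while the first coding base lies 3438 bases downstream. All 300 bases of the window of promoter 3 lie inside both intervals, whereas promoters 1 and 2 have 0 bases inside either. The windows below are from RefSeq (GRCh38.p14, minus strand, 5′ to 3′), with each AATC or its reverse complement GATT in capitals.
GFI1 promoter 1, chr1:92486876-92487175: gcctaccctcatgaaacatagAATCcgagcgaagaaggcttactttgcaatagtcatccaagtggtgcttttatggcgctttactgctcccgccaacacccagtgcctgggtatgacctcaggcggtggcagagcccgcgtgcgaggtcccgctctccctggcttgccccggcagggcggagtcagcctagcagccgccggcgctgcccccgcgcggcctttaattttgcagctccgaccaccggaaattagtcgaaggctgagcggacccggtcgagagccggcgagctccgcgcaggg
GFI1 promoter 2, chr1:92486050-92486349: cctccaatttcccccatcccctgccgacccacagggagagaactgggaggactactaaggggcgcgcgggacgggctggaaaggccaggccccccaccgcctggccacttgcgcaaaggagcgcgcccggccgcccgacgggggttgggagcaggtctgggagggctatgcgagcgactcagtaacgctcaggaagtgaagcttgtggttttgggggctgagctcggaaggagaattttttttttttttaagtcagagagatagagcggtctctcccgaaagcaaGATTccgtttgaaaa
GFI1 promoter 3, chr1:92483765-92484064: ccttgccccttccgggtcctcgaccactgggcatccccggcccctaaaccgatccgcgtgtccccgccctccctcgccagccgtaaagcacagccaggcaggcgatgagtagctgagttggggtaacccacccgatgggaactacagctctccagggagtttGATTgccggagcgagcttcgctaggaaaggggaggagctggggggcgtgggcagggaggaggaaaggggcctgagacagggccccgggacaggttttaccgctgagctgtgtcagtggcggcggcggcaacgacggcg

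The first DNA word searched in the member promoters was AATC on either strand, which 69.0% of the 35116 RefSeq promoter windows hold. Each GFI1 window held it once. The GFI1B windows held it 2 and 4 times, the INSM2 window 3 times and the SCRT2 window 2 times. The longer word AAATCA or TGATTT, which contains the core and occurs in 13.2% of all windows, was absent from the 3 GFI1 windows. GFI1B, by contrast, held it once in each of its 2 windows. The Snail and Scratch word, CAGGTG or CACCTG, occurs in 20.6% of all windows and was found in 1 of the 7 member windows, that of SCRT2. That window (RefSeq, GRCh38.p14, minus strand) is printed because SCRT2 was also among the members that rose, with the CACCTG in capitals, and a match describes letters and not a bound site.
SCRT2 promoter, chr20:675753-676052: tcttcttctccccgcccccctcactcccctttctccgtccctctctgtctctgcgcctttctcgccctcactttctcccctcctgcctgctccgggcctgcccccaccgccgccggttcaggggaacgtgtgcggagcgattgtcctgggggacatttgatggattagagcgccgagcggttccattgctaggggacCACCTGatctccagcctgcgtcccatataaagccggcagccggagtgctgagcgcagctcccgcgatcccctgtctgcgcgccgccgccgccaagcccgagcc
The 7 windows belong to 4 members, GFI1, GFI1B, INSM2 and SCRT2. INSM1, SNAI1, SNAI2, SNAI3 and SCRT1 had no window in the promoter set used here and were not searched.

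In the libraries labelled GFI1-KO, 6 of the 8 tested members were higher and 1 was lower (quasi-likelihood test of edgeR, Benjamini-Hochberg adjustment over all tested genes, adjusted p of at most 0.05). Among all tested genes, 36.5% were higher and 35.9% lower by the same rule, 72.4% in all. SNAI2, SCRT2, SCRT1, INSM2, SNAI3 and GFI1 rose, INSM1 fell, and SNAI1 did not pass the test. Corrected for GC content and gene length, 3 members were higher (SNAI2, SCRT1 and INSM2) and 1 lower (INSM1). Of all genes, 32.5% were higher and 28.3% lower with this correction. In that fit the calls of GFI1, SCRT2 and SNAI3 were lost, SNAI3 had a log2 fold change of -0.00 and SNAI1 one of -0.45, and the decrease of INSM1 went from -0.08 to -0.79. The median log2 fold change was 0.87 over the 8 tested members and 0.00050 over all tested genes. Normalized counts, which are counts scaled by edgeR's TMM method, did not overlap between the groups for 6 of the 8 tested members, against 37.5% of all tested genes without overlap and higher and 37.0% without overlap and lower. Each of these 6 gave p = 0.1 in an exact two-sided permutation test of the normalized counts, the smallest p that 3 libraries against 3 allow.

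GFI1 (ENSG00000162676, chromosome 1, 92474762 to 92486876, minus strand), the repressor that the guides target, had 153, 106 and 125 counts in WT and 174, 188 and 170 in GFI1-KO. Every library labelled GFI1-KO thus had more counts than every library labelled WT, and the normalized counts did not overlap either, lying between 117 and 157 in WT and between 160.0 and 178 in GFI1-KO. The mean rose from 135 ± 19.9 to 168 ± 9.28 (SD, n = 3 each), and edgeR gave a log2 fold change of 0.31 with an SE of 0.12 (adjusted p = 0.0273). On the scale of TPM, counts divided by gene length and scaled to the same total in each library, the groups did overlap, at 9.04 to 12.2 in WT and 11.3 to 12.5 in GFI1-KO. DESeq2 gave the same log2 fold change of 0.31 with an adjusted p of 0.0720, and leaving out the second WT library gave 0.21 (adjusted p = 0.147, edgeR). The call was also lost without the third WT library (0.28, adjusted p = 0.0633) and without the second GFI1-KO library (0.27, adjusted p = 0.0927, both edgeR), and corrected for GC content and length (0.17, edgeR adjusted p = 0.232). Counts per gene do not show from which start or exon a read came.

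GFI1B (ENSG00000165702, chromosome 9, 132944000 to 132991687, plus strand), the close relative of GFI1 in red cell and platelet precursors, had 1, 2 and 1 counts in WT and 3, 7 and 5 in GFI1-KO. These values lie at or near the floor, and GFI1B was the member that failed the filter. The summed counts, 4 in WT and 15 in GFI1-KO, gave a ratio of GFI1-KO to WT of 3.35, with a 95% interval of 1.07 to 13.9 from counting error alone. In a fit without the filter, over 34356 genes, the log2 fold change was 1.67, with an SE of 0.95 (edgeR adjusted p = 0.173). TSC1, a gene of the opposite strand, shares 349 bases with the exons of GFI1B, or 5.72% of them, and had 777 ± 43.3 normalized counts in WT (SD, n = 3). Whether reads were counted by strand is not stated, so counts of GFI1B and TSC1 reads cannot be told apart in that stretch.

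INSM1 (ENSG00000173404, chromosome 20, 20368121 to 20370949, plus strand), a master regulator of neuroendocrine differentiation, was the member with the highest level in every library. It had 6780, 6552 and 6408 counts in WT and 7067, 6636 and 7133 in GFI1-KO. After scaling, the groups overlapped, at 6726 to 7253 normalized counts in WT and 6289 to 6734 in GFI1-KO. The log2 fold change was -0.08, with an SE of 0.04 (edgeR adjusted p = 0.0370), and the exact two-sided permutation test of the normalized counts gave p = 0.2. The level per length was 634 ± 16.7 TPM in WT (SD, n = 3) and 541 ± 22.6 TPM in GFI1-KO (SD, n = 3), higher than that of 99.2% and 98.9% of the tested genes. On the TPM scale the groups did not overlap, at 620 to 652 in WT and 515 to 554 in GFI1-KO. The call of a decrease was lost without the first WT library (-0.09, adjusted p = 0.0540), the second WT library (-0.06, adjusted p = 0.129), the second GFI1-KO library (-0.05, adjusted p = 0.269) or the third GFI1-KO library (-0.10, adjusted p = 0.0547, all edgeR), whereas the GC correction made the decrease larger, at -0.79 (edgeR adjusted p = 3.0e-16).

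INSM2 (ENSG00000168348, chromosome 14, 35534042 to 35537054, plus strand), an intronless relative of INSM1, had 50, 38 and 46 counts in WT and 96, 106 and 92 in GFI1-KO. All 3 libraries labelled GFI1-KO lay above all 3 labelled WT. Its mean rose from 47.2 ± 4.66 to 92.8 ± 7.03 in normalized counts (SD, n = 3 each), with a log2 fold change of 0.97 (SE 0.18, edgeR adjusted p = 2.5e-05), or 0.49 with the GC correction (edgeR adjusted p = 0.0210). Even so, its level per length in GFI1-KO, 7.17 ± 0.515 TPM (SD, n = 3), remained far under that of INSM1.

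SNAI2, or Slug (ENSG00000019549, chromosome 8, 48917604 to 48921740, minus strand), which silences epithelial junction genes in neural crest and tumor cells, rose most of the 8 tested members. It had 148, 177 and 133 counts in WT and 1271, 1236 and 1361 in GFI1-KO, so that the groups were far apart. The mean rose 7.54-fold, from 162 ± 29.7 to 1221 ± 55.5 in normalized counts (SD, n = 3 each), with a log2 fold change of 2.91 (SE 0.082, edgeR adjusted p = 7.7e-21). Per length, its level went from 12.3 ± 2.11 TPM in WT (SD, n = 3), above 40.7% of the tested genes, to 83.8 ± 4.12 TPM in GFI1-KO (SD, n = 3), above 86.2% of them. A log2 fold change at least this high was found for 128 of the tested genes, SNAI2 included. A gene of the opposite strand that is not in the table, ENSG00000288761, shares 121 bases (3.69%) of its exons.

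SNAI1, or Snail (ENSG00000124216, chromosome 20, 49982999 to 49988886, plus strand), the founding member of the Snail group, had 33, 45 and 47 counts in WT and 50, 50 and 50 in GFI1-KO. The groups overlapped after scaling, with 44.3 ± 9.12 normalized counts in WT (SD, n = 3) and 47.4 ± 0.295 in GFI1-KO (SD, n = 3). Its log2 fold change was 0.10 with a 95% interval of -0.33 to 0.53 (edgeR adjusted p = 0.698), and the permutation test gave p = 1.0 (exact, two-sided). Without the first WT library the value was -0.07 (adjusted p = 0.795, edgeR). At this depth, each count of 50 has a 95% Poisson interval of 37.1 to 65.9, and the interval of the fold change includes the value seen for GFI1.

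SNAI3 (ENSG00000185669, chromosome 16, 88677682 to 88686493, minus strand), the least studied Snail gene, had 21, 21 and 24 counts in WT and 40, 52 and 34 in GFI1-KO. The groups did not overlap. Its mean rose from 23.3 ± 1.85 to 39.8 ± 8.76 in normalized counts (SD, n = 3 each). The log2 fold change of 0.77 (SE 0.27, edgeR adjusted p = 0.0116) was 0.59 without the second GFI1-KO library (adjusted p = 0.0837, edgeR). The antisense gene SNAI3-AS1 shares 177 bases, or 10.2%, of the exons of SNAI3 and rose as well (log2 fold change 0.95, adjusted p = 6.2e-05, edgeR). Without a stated strand setting the reads in the shared bases cannot be told apart, and the counts of SNAI3 are uncertain to that extent.

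SCRT1 (ENSG00000261678, chromosome 8, 144330565 to 144336281, minus strand), the neuronal E-box repressor Scratch, had 523, 482 and 441 counts in WT and 1261, 1198 and 1245 in GFI1-KO. No library of one group came near the range of the other. The mean rose 2.29-fold, from 511 ± 41.4 to 1170 ± 33.2 in normalized counts (SD, n = 3 each), with a log2 fold change of 1.20 (SE 0.060, edgeR adjusted p = 1.4e-15). With the GC correction it was 0.42, still higher in GFI1-KO (edgeR adjusted p = 3.7e-07). SLC52A2, named after its values had been seen, overlaps 155 bases (3.89%) of its exons on the other strand and rose too (log2 fold change 0.84, adjusted p = 3.9e-13, edgeR).

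SCRT2 (ENSG00000215397, chromosome 20, 661596 to 676179, minus strand), the second Scratch gene, had 15, 21 and 10 counts in WT and 42, 53 and 41 in GFI1-KO. The groups did not overlap, although the 3 WT libraries spread widely around a low mean. That mean rose from 16.4 ± 6.43 to 42.9 ± 6.35 in normalized counts (SD, n = 3 each), with a log2 fold change of 1.39 (SE 0.29, edgeR adjusted p = 1.4e-04). The GC correction lowered it to 0.64, and the call was lost (edgeR adjusted p = 0.0611). Its transcripts share 10.2% of their 50-base words with other genes, ENSG00000270299 and SCRT1, so that its counts are uncertain. Of its 321 shared words, 38 are shared with SCRT1. ENSG00000270299, named after its values had been seen, lies on the same strand and overlaps 332 bases (10.4%) of the exons of SCRT2. It had 1.05 ± 1.03 normalized counts in WT and 5.37 ± 1.12 in GFI1-KO (SD, n = 3 each). For each other member the share of words is at most 0.967%.

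Levels can be compared between genes only per length, and the plot of TPM by library does so. In WT, the order from highest to lowest was INSM1, SCRT1, SNAI2, GFI1, SNAI1, INSM2, SNAI3, SCRT2 and GFI1B. The difference between SNAI2 and GFI1 and that between INSM2 and SNAI3 did not exceed the sum of their SDs, while every other pair of neighbours differed by more. In GFI1-KO, the order was INSM1, SNAI2, SCRT1, GFI1, INSM2, SNAI1, SNAI3, SCRT2 and GFI1B, and the neighbours within the spread were SNAI1 and SNAI3. SNAI2, level with GFI1 within the spread in WT, thus stood second and above SCRT1 (72.0 ± 2.24 TPM, SD, n = 3) in GFI1-KO.

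**Figure D1:**
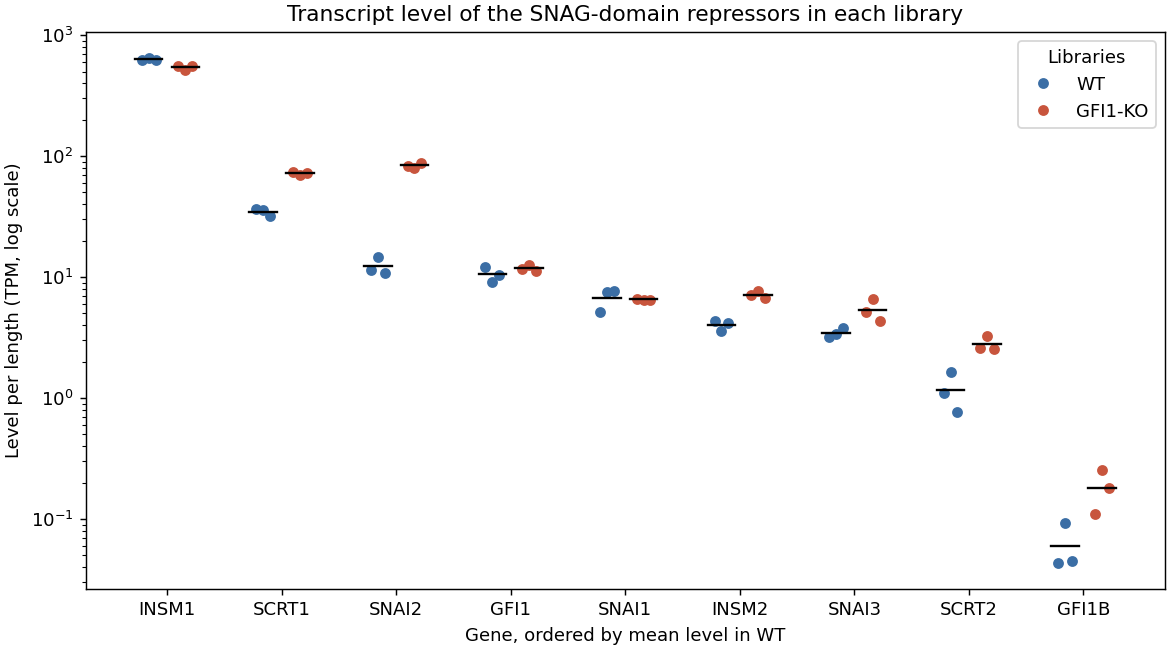
Level per length of the 9 genes in each library, in TPM on a log scale, with WT libraries in blue, GFI1-KO libraries in red and black lines at the group means. INSM1 lies at 515 to 652 TPM, far above the other genes, GFI1B is the lowest, and the SNAI2 libraries labelled GFI1-KO, at 80.0 to 88.2 TPM, lie far above those labelled WT, at 10.7 to 14.7 TPM.

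Summed over the 9 members, the level was 707 ± 19.6 TPM in WT (SD, n = 3) and 731 ± 25.4 TPM in GFI1-KO (SD, n = 3), and the ranges of 690 to 728 and 702 to 746 overlapped. INSM1 alone made up 89.7% of that sum in WT and 74.0% in GFI1-KO. Without INSM1, the sum was 73.0 ± 3.26 TPM in WT (SD, n = 3) and 189.7 ± 2.90 in GFI1-KO (SD, n = 3), and the groups did not overlap. Of that remainder, SNAI2 took 16.8% in WT and 44.2% in GFI1-KO, SCRT1 took 47.5% and 38.0%, and GFI1 took 14.4% and 6.25%. The 3 Snail genes summed to 22.5 ± 2.96 and 95.7 ± 3.03 TPM, and the 2 Scratch genes to 35.9 ± 2.75 and 74.8 ± 1.90 TPM (SD, n = 3 each). Set against GFI1 in the same library, SNAI2 transcripts were 1.20 ± 0.371 times as abundant in WT and 7.10 ± 0.697 times in GFI1-KO (SD, n = 3), and SCRT1 transcripts 3.35 ± 0.544 and 6.10 ± 0.462 times (SD, n = 3). Summed over the 9 members as normalized counts, which are not divided by length, the groups did not overlap. These sums were 7594 to 8240 in WT and 9027 to 9534 in GFI1-KO. None of the sums, in TPM or in normalized counts, was corrected for GC content. In bulk RNA, a change in the number of cells that express a gene and a change in RNA per cell cannot be told apart.

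**Figure D2:**
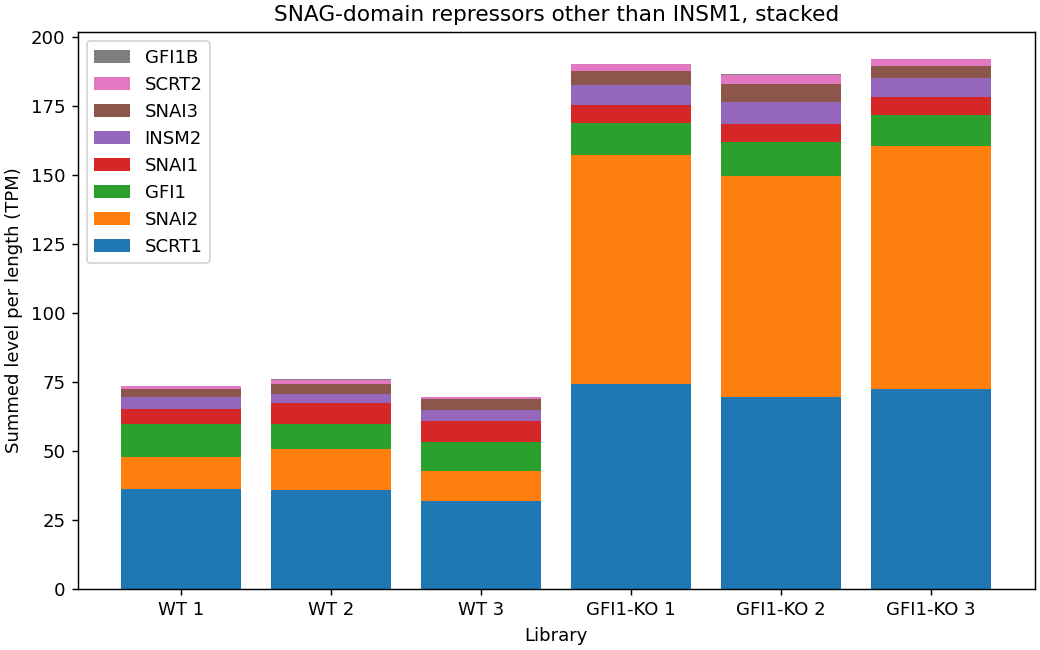
Summed level per length, in TPM, of the 8 genes other than INSM1 in each library, stacked by gene. The WT columns reach 69.5 to 75.9 TPM and the GFI1-KO columns 186 to 192 TPM, with SNAI2 and SCRT1 as the widest segments of the latter.

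The authors' table assigns 630 genes to the C2H2 zinc finger family, of which 551 were tested. Of these, 24.5% were higher in GFI1-KO and 43.7% lower, and their median log2 fold change was -0.17. Ordered by fold change from the highest, the members stood at places 2 (SNAI2), 14 (SCRT2), 16 (SCRT1), 29 (INSM2), 49 (SNAI3), 118 (GFI1), 178 (SNAI1) and 242 (INSM1). These shares and places are from the fit without the GC correction, and places with it were not computed.

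Fold changes in these libraries followed the GC content of genes, with a Spearman rho of 0.574 across 17415 tested genes, given as a description since the genes share libraries. All tested members but SNAI2 had a GC content above the median gene. The median GC content of tested genes was 48.2%, while that of the longest transcript was 67.6% for SCRT1, 66.2% for SCRT2, 65.3% for SNAI3, 63.2% for INSM1, 58.4% for SNAI1, 57.5% for INSM2, 50.6% for GFI1 and 41.4% for SNAI2. A fit with offsets for GC content and length, which brought rho to 0.0254, called 3 members higher and 1 lower, against 32.5% higher and 28.3% lower of all genes. SNAI2, the member with the lowest GC content of the 8, had a log2 fold change of 3.20 in this fit (adjusted p = 3.4e-20, edgeR). SCRT1 (0.42), INSM2 (0.49) and INSM1 (-0.79) also kept their calls.

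The other members lost their call or had none. GFI1 had 0.17 and SCRT2 0.64. SNAI3 went to -0.00 (adjusted p = 0.994, edgeR), and SNAI1 changed sign to -0.45 (adjusted p = 0.0843, edgeR). Whether the GC trend is a property of the libraries or of the cells was not tested, and of the 8 tested members all but SNAI2 moved by over 1.5 times with the correction.

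**Figure D3:**
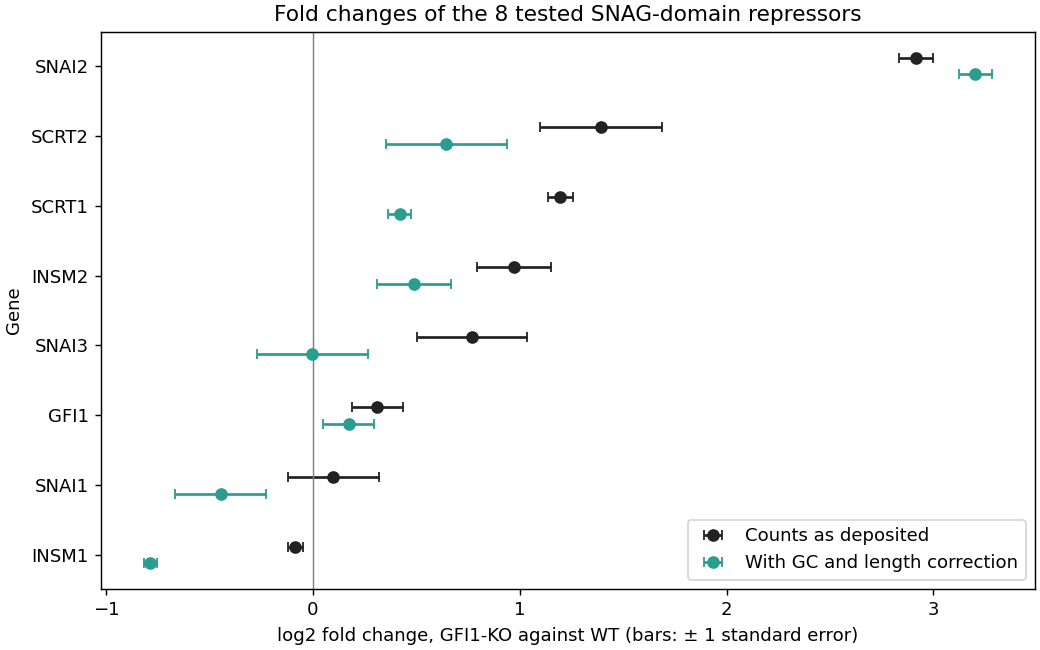
log2 fold changes of the 8 tested genes, GFI1-KO against WT, from counts as deposited (black) and corrected for GC content and length (green), bars giving 1 standard error on each side. SNAI2 lies at 2.91 and 3.20, SCRT1 at 1.20 and 0.42, while SNAI1 and SNAI3 cross 0 with the correction, to -0.45 and -0.00.

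SNAG proteins act through partners, and 21 genes of the LSD1, CoREST and histone deacetylase complexes and other SNAG cofactors were listed. All 21 were tested, 8 being higher (38.1%) and 7 lower (33.3%) in GFI1-KO, near the 36.5% and 35.9% of all tested genes (median log2 fold change 0.02). The 3 lowest were RUNX1T1, a corepressor also called ETO, HDAC2, a histone deacetylase, and RCOR2, a CoREST scaffold. RUNX1T1 fell from 758 ± 28.0 to 125.0 ± 6.12 normalized counts (SD, n = 3 each), a log2 fold change of -2.60, and HDAC2 from 8061 ± 239 to 4307 ± 151 (SD, n = 3 each), or -0.90. RCOR2 had a log2 fold change of -0.63. The GC correction gave -2.28 for RUNX1T1, -0.31 for HDAC2 and -1.36 for RCOR2. KDM1A, the LSD1 gene that the SNAG domain binds, named here after its values had been seen, fell from 4585 ± 93.7 to 2995 ± 95.7 normalized counts (SD, n = 3 each), a log2 fold change of -0.61 (adjusted p = 1.5e-14, edgeR), and it remained lower at -0.46 with the GC correction. The 3 highest were the LIM-domain cofactors WTIP (1.14) and AJUBA (0.63), which bind the Snail SNAG domain, and LOXL2 (0.78), a lysyl oxidase that interacts with Snail, which had 0.90, 0.49 and 0.40 with the GC correction.

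Of 13 genes listed as regulators upstream of GFI1 or of the neuroendocrine members, 10 were tested, 5 being higher and 4 lower (median log2 fold change 0.01), against 36.5% higher and 35.9% lower of all tested genes. After the GC correction 3 were higher and 6 lower, against 32.5% and 28.3%. NEUROG3, an endocrine proneural factor, had 23, 20 and 20 counts in WT and 2, 0 and 1 in GFI1-KO, a WT to GFI1-KO ratio of summed counts of 23.5 with a 95% interval of 7.68 to 117 from counting error alone. NKX2-2, an endocrine homeobox factor, also fell, by 2.90 on the log2 scale. The blood regulators GATA2 (1.51), RUNX1 (0.83) and RUNX3 (0.61) had the 3 highest log2 fold changes, of which RUNX3 lost its call with the GC correction (0.20, edgeR adjusted p = 0.15). ATOH1, the inner ear factor that acts with GFI1 in hair cells, had no count in any of the 6 libraries.

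Among 18 genes described as GFI1 targets in blood cells, 14 were tested, 8 being higher (57.1%) and 3 lower (21.4%), against 36.5% and 35.9% of all tested genes (median log2 fold change 1.22). The list was chosen with earlier results of these data known, so its shares are a description and not a test. ID1, an inhibitor of basic helix-loop-helix factors, had 767, 639 and 753 counts in WT and 6041, 5953 and 6217 in GFI1-KO (log2 fold change 2.92). CSF1, the macrophage growth factor, had 850, 807 and 764 counts in WT and 5615, 5675 and 5787 in GFI1-KO (2.66). The CDK inhibitor CDKN1A followed with a log2 fold change of 2.08. E2F5 (-0.53), HOXA9 (-0.28) and E2F6 (-0.20) fell. With the GC correction, 10 of the 14 were higher and 1, HOXA9, was lower, against 32.5% higher and 28.3% lower of all genes.

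The Snail proteins are known to repress epithelial genes, and 10 of 11 such genes were tested. In GFI1-KO, 3 of the 10 were higher and 4 lower, shares near the 36.5% and 35.9% of all tested genes (median log2 fold change -0.02). CDH1, which encodes E-cadherin, fell from an already low level, with 35, 18 and 24 counts in WT and 10, 6 and 1 in GFI1-KO (log2 fold change -2.31, adjusted p = 5.3e-05, edgeR). The tight junction gene OCLN (-1.06) and the vitamin D receptor gene VDR (-0.35) fell as well. The claudin genes did not move one way. CLDN1 had 4, 4 and 4 counts in WT and 64, 76 and 80 in GFI1-KO and rose, and CLDN7 rose by 2.12 on the log2 scale. CLDN4 (-0.19) was lower and CLDN3 (-0.02) did not pass the test, both named after their values had been seen. With the GC correction CLDN1 (4.30) and CLDN7 (1.54) remained higher, whereas CLDN3 (-0.88) and CLDN4 (-0.61) were lower. DSP, a desmosome gene, had a log2 fold change of 0.14. With the GC correction, 7 of the 10 genes were lower and 3 higher, against 28.3% lower and 32.5% higher of all genes.

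The other E-box repressors of epithelial genes, which lack a SNAG domain, were split. ZEB1 (0.59) and TWIST1 (0.22) were higher, ZEB2 (-0.50) and TWIST2 (-1.70) lower. The GC correction turned TWIST1 to -0.26 and ZEB2 to 0.06, whereas ZEB1 (1.12) and TWIST2 (-2.20) kept their direction. ZEB1 had 621 ± 32.7 normalized counts in WT and 933 ± 30.6 in GFI1-KO (SD, n = 3 each).

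The labels call the cells neuroendocrine, and of 18 neuroendocrine genes 16 were tested. All 16 differed between the groups, as did 72.4% of all tested genes, 10 being higher and 6 lower (median log2 fold change 0.19). Their summed level was 42607 to 42893 normalized counts in WT and 58539 to 59859 in GFI1-KO. The synaptic vesicle gene SYP (1.21), the secretogranin SCG2 (1.17) and the adhesion gene NCAM1 (1.12) had the highest fold changes. DDC (-3.26), an enzyme of amine synthesis, and SCG3 (-0.71) were among the lowest. CALCA, the calcitonin gene, was not tested and had 4, 5 and 9 counts in WT and 0, 0 and 0 in GFI1-KO. With the GC correction, 4 of the 16 were higher and 10 lower, against 32.5% higher and 28.3% lower of all genes.

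Markers of other cells were measured in the same fit. Of 8 blood cell markers, CD3E and HBB had no count, and 1, HBA1, passed the filter (log2 fold change 0.04, adjusted p = 0.917, edgeR), with summed levels of 18.4 to 23.2 normalized counts in WT and 22.7 to 25.4 in GFI1-KO. PTPRC, CD14, CD68 and LYZ were near the floor. Of 7 fibroblast markers, 5 were tested, and the list summed to 3143 to 3227 normalized counts in WT and 2235 to 2313 in GFI1-KO. Most of this sum was COL1A2, with 2912 ± 49.6 normalized counts in WT and 2008 ± 43.1 in GFI1-KO (SD, n = 3 each). COL3A1 rose from 2.49 ± 0.721 to 139.5 ± 18.8 normalized counts and PDGFRA from 1.08 ± 1.11 to 14.8 ± 1.54, while PDGFRB fell from 141 ± 1.41 to 14.8 ± 1.17 (SD, n = 3 each). COL1A1 (-0.41) and COL1A2 (-0.54) fell, DCN had no count and LUM was not tested. With the GC correction COL1A1 had -0.92 and COL1A2 -0.14. The part of these markers in the results for the Snail genes was not tested.

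The 8 listed genes beside or overlapping members were also tested, 2 being higher and 6 lower, against 36.5% and 35.9% of all tested genes. TSC1 (0.31) and SLC52A2 (0.84) also overlap members and were higher. They are not in this list and are named after their values had been seen. Around GFI1 on chromosome 1, EVI5 (-0.38), RPL5 (-0.52), RPAP2 (-0.45) and GLMN (-0.76) were lower in GFI1-KO, where GFI1 itself was higher. With the GC correction EVI5 changed sign to 0.15, RPAP2 (0.01) and RPL5 (-0.05, edgeR adjusted p = 0.24) lost their calls, and GLMN had -0.23. RNF166 (0.73) beside SNAI3 and SNAI3-AS1 (0.95) were higher, with 0.16 (not called) and 0.55 after the correction. RALGAPA1 (-0.63) beside INSM2 and RNF114 (-0.36) beside SNAI1 were lower.

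The 5 protein-coding genes whose log2 CPM was most like that of GFI1 over the 6 libraries, out of 11220 with 100 or more counts on average, were KCTD15 (Pearson's r = 0.991), ADPGK (0.990), GOT1 (0.986), IRF5 (0.981) and MORN4 (0.979). With 6 libraries in 2 groups, these values describe likeness only, and no member was among the 5.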

How the data were processed

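RNA-Seq of H1155 cells comprised 3 WT and 3 GFI1-KO libraries by their labels. The authors deposited counts per gene and library without normalization, and other deposited values from the authors (gene length, start and end in bases, transcription factor family). The study's methods describe poly-T selection, NovaSeq sequencing, Hisat2 alignment to GRCh38/hg38 and featureCounts, whereas the submitters' processing notes name Bowtie2, HTSeq and hg38. Which of these made the table is not settled here, and the annotation release, strand setting and handling of multiply mapped reads are not given in the sources used here. Library totals were 14882914 to 17692882 counts.

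Counts were tested with edgeR 4.0.16 in R 4.3.3 (filterByExpr, TMM factors, quasi-likelihood F test, Benjamini-Hochberg adjustment over all tested genes) at an adjusted p of at most 0.05 with no fold minimum, without pairing. For normalized counts, each count was scaled to the mean of the 6 TMM effective library sizes. TPM was computed from counts and deposited gene lengths. Exact permutation tests were two-sided, and 95% Poisson and ratio intervals cover counting error only. Fold change intervals are 1.96 standard errors wide on each side. GC content was taken from the longest GENCODE release 44 transcript. A gene was called uncertain where over 10% of its transcripts' 50-base words were shared with other genes. Guides from the study's supplement were matched to GRCh38 on both strands, and promoter windows came from RefSeq (GRCh38.p14). Alternatives were DESeq2 1.42.0, limma-voom (limma 3.58.1), median-of-ratios factors, library size alone, no filter, at least 10 counts in every library, an adjusted p of at most 0.01, a replicate block, offsets for GC content and length (natural splines of 5 degrees of freedom) without and with the block, FPKM or CPM in place of TPM for ranks, and each library left out in turn.

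The members and lists were chosen with earlier results of these data known. Named genes were all members, the 3 highest and 3 lowest called genes of each list with a mean of at least 10 normalized counts, all genes of lists of 8 or fewer, and the 5 genes most like GFI1. Some genes of the lists are counted but not reported here by name. Genes outside this rule are said to be named after their values were seen. In simulated counts of 17174 genes for GFI1-KO against WT, of which 200 differed by 1 on the log2 scale, 87.5% of these were recovered by edgeR, and 7.41% of the calls were false. With a GC trend added to the simulation, 98.4% of 10911 uncorrected calls and 8.38% of 179 corrected calls lay outside the 200 changed genes. These shares depend on the trend that was put in and on the 200 genes made to differ. The share of false calls in the real libraries was not tested. Tables and figures were made in Python 3.11.15 with scipy 1.17.1, numpy 2.4.6, pandas 2.3.3 and matplotlib 3.10.9.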

Additional observations from a re-analysis of the deposited data

How the results depend on the processing

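Of 356 values recomputed under the alternatives, 312 kept their direction and side of the threshold (or, for counts and ranks, stayed near the reported value), 17 lost a call, 22 moved and 5 changed sign. The 312 include ranks by FPKM, counts divided by gene length and library total. FPKM is proportional to TPM within a library, so those ranks could hardly move. Corrected for GC content and length, with or without the replicate block, 3 members were higher. This correction also called 3 upstream regulators higher, 1 GFI1 target and 7 epithelial genes lower, and 4 neuroendocrine genes higher. Without the block, 10 neuroendocrine genes were lower. In that fit 32.5% of all genes were higher and 28.3% lower. The number of members lower was 0 without the filter and 0 at an adjusted p of at most 0.01. With at least 10 counts in every library, which removes genes near 0 in GFI1-KO, 1 upstream regulator was lower. With each library left out in turn, 4 to 6 members were higher and 0 to 1 lower. In the main fit 36.5% of all tested genes were higher and 35.9% lower. Apart from the main fit, DESeq2 and the GC correction without the block, the share of all genes called was not computed. The log2 fold change of SNAI1 changed sign to -0.45 with the GC correction, -0.44 with the block as well and -0.07 without the first WT library, and ranged from -0.072 to 0.18 with each library left out. That of SNAI3 went to -0.0024 with the GC correction and -0.012 with the block as well. INSM1 had -0.07 without the filter (adjusted p = 0.0833, edgeR). The cause was not tested. By CPM, INSM2 and SNAI1 exchanged places 5 and 6 in WT, as did SNAI3 and SCRT2 places 7 and 8 in GFI1-KO. Deviations from the group means correlated at -0.0036, 0.0164 and 0.0238 between same-numbered libraries and at -0.0517 to 0.0427 between others. The replicate numbers thus showed no sign of a shared deviation, which cannot tell whether the libraries were prepared in pairs. With the replicate block alone, again 6 members were higher and 1 lower. Depth limits GFI1B most, and then SCRT2, SNAI3 and SNAI1.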
